A study of Mus musculus with 20 samples.

Results

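The chromosome contacts described here were measured in mouse induced pluripotent stem (iPS) cells and in neural progenitor cells (NPC), the cell type from which the iPS cells had been made. They are pairs of HindIII restriction fragments joined by ligation and read by 5C, in which a pool of forward and reverse primers counts the ligation products between chosen fragments. All pairs of 1 forward and 1 reverse primer in the same region were taken that averaged at least 10 counts over the 10 5C libraries of the study, which left 75889 of 96467 pairs with any count. The 7 regions lie around Oct4 (the gene Pou5f1), Nanog, Sox2, Klf4, Nestin (the gene Nes) and Olig1-Olig2, with a gene desert on chromosome 5 as the negative control. NPC cells came from the whole brains of postnatal day 1 mice of the strain 129SvJae x C57BL/6 with a Sox2-eGFP allele, and were grown as neurospheres and then plated on laminin. iPS cells carried the same strain background and the same Sox2-eGFP allele. They were grown in serum with LIF on mouse embryonic fibroblast feeders and then passaged onto gelatin. Both groups were fixed with 1% formaldehyde and had 2 5C libraries and 2 RNA libraries each. The labels do not say whether the replicates were separate animals, cultures or iPS clones, so the tests measure the spread between these libraries, which may be technical. ES cells of the line V6.5 (also 129SvJae x C57BL/6), grown in serum with LIF, are given beside the 2 groups as a reference for pluripotent cells.

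Genes are controlled in part by enhancers that can lie far away on the chromosome and come near the promoter in a loop. Such loops form mostly inside domains whose borders are often held by the protein CTCF and by cohesin, a ring that extrudes DNA. Pou5f1, Sox2, Klf4 and Nanog encode transcription factors of the pluripotent state, and the first 3 are among the classic reprogramming factors. Olig1 and Olig2 encode factors of the oligodendrocyte lineage that neural progenitors also make, and Nes encodes an intermediate filament of neural stem cells. Sox2 is shared by both cell types, which use different enhancers for it.

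The primers sit at HindIII cuts (AAGCTT), so a promoter is seen only through whole fragments. Promoter fragments here are those that overlap the 2 kb on either side of a gene's start, and not all of them hold the start. The 250 bases before the start of 4 of these genes are shown because contacts of their promoter fragments are reported further on. They are RefSeq promoters on GRCm38.p6, plus strand, whereas all other positions below are on mm9, the build of the deposited files. Capitals mark the HindIII site.
Olig2, chr16:91225300-91225549: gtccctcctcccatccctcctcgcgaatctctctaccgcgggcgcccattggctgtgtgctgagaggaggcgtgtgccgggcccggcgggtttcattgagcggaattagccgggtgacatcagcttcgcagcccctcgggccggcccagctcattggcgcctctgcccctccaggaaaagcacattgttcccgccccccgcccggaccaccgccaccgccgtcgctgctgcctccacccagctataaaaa
Nes, chr3:87970843-87971092: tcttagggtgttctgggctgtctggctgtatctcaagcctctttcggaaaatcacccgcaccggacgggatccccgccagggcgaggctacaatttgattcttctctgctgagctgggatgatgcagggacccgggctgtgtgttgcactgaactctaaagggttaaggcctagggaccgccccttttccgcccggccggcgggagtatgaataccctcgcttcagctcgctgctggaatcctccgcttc
Sox2, chr3:34649745-34649994: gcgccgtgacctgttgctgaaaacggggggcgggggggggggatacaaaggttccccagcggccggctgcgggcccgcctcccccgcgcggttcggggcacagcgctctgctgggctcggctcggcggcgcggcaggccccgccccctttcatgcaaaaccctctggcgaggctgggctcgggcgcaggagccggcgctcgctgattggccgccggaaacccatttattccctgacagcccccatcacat
Nanog, chr6:122707239-122707488: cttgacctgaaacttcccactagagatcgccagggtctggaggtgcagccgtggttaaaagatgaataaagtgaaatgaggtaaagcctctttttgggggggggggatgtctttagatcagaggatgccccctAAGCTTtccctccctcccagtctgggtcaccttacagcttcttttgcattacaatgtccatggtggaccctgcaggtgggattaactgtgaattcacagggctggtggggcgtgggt
The Nanog promoter is cut by HindIII within these letters, so that its start lies close to a border between fragments. The other 3 stretches hold no such site. The Sox2 promoter fragment with contacts (chr3:34549388-34558024) begins after the Sox2 start (chr3:34548927), so it does not hold the Sox2 letters. AAGCTT was found in 6.22% of the 32851 mouse promoters of the table, and in 6 of 92 promoters of the 70 region genes that matched it by symbol. The site reads the same on both strands.

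NPC libraries held 14887963 and 14698138 reads in all, and iPS libraries 12177594 and 12891487. Within-region pairs took between 83.6% and 90.5% of them. The kept pairs had a median of 27 and 33 counts in the NPC libraries against 45 and 48 in the iPS libraries, and 1077 and 1118 of them had no count in the NPC libraries against 209 and 42. Across 35341 pairs averaging at least 50 counts, the levels correlated with r = 0.874 between the NPC libraries and 0.869 between the iPS libraries. All libraries share the primer set, and iPS replicate 2 correlated as closely with an ES library grown with 2 kinase inhibitors (r = 0.895). RNA from the same cell types matched the labels. edgeR's quasi-likelihood test called 5663 of 11031 gene models (51.3%), 3235 higher (29.3%) and 2428 lower (22%) in iPS cells. Of the measured pluripotency markers 10 of 11 were higher, and of the neural progenitor markers 7 of 7 were lower. Pou5f1 gave 0 reads in both NPC libraries, against 3898 and 2913 CPM (counts scaled to the TMM-adjusted reads assigned to genes in each library) in the iPS libraries. Olig1 gave 3684 and 4506 CPM in the NPC libraries, against 16.9 and 17.5. Of the fibroblast markers Col1a1, Col1a2, Col3a1, Thy1, Acta2 and Tagln, which feeder cells make, 5 of 6 were higher in iPS cells and Thy1 was lower. Their summed level was 2744 and 2945 CPM in the iPS libraries against 74.5 and 104.9 in the NPC libraries. Of the neuron, astrocyte and oligodendrocyte markers Tubb3 and Mbp were higher and S100b was lower, and no marker of microglia or blood was measured above the count filter. Their part in the contacts below was not tested.

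The counts were distributed over distance differently in the 2 cell types. Pairs of neighbouring fragments have under 10 bases between them, and in 5C undigested DNA and a true ligation of neighbours cannot be told apart. These 1166 pairs took 46.1% and 43.7% of the kept counts in the NPC libraries, and 18.7% and 21.1% in the iPS libraries. ES cells gave 25.9% and 20.0%. The groups did not overlap in any of the 7 regions. In the gene desert the shares were 77.9% and 75.6% in NPC cells against 50.9% and 56.2% in iPS cells, and in the Oct4 region they were 31.2% and 30.9% against 11.9% and 13.4%.

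**Figure D1:**
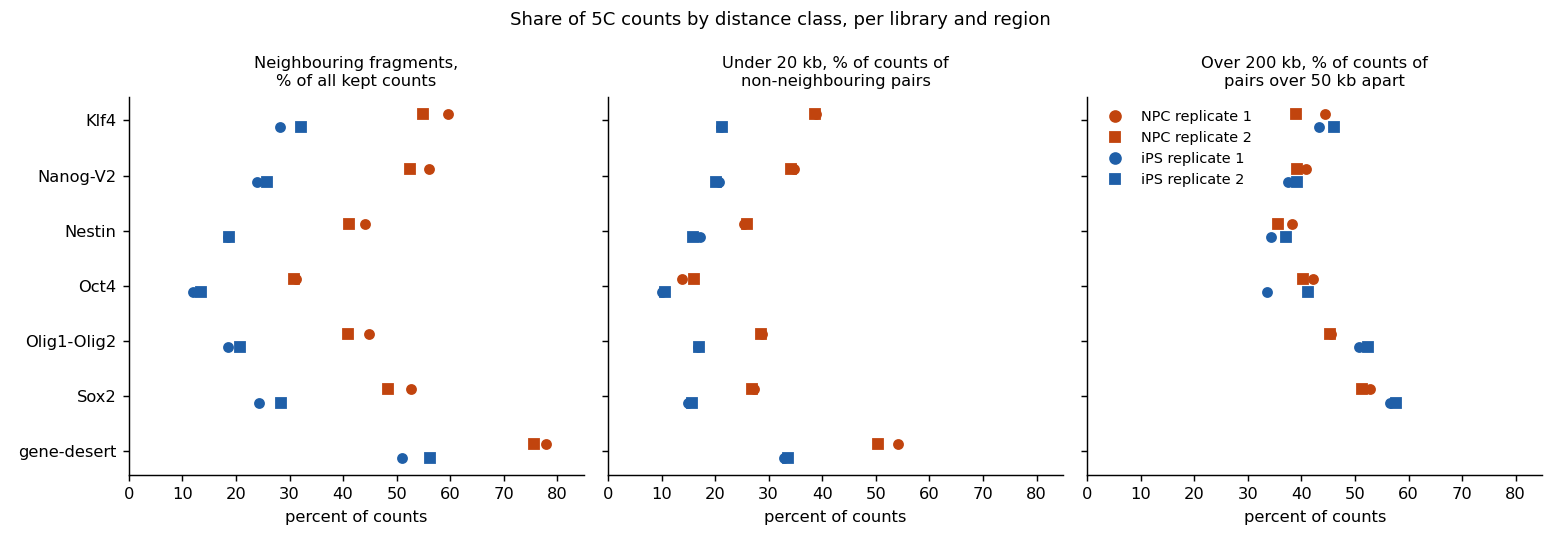
Share of 5C counts by distance class (x axis, percent) in each region (y axis). Points are single libraries, orange for NPC and blue for iPS. Left, neighbouring fragments: every NPC value lies above every iPS value. Middle, pairs under 20 kb apart among non-neighbouring pairs: again higher in NPC cells. Right, pairs over 200 kb apart among those over 50 kb apart: the groups come together, except in the Olig1-Olig2 and Sox2 regions, where iPS cells are higher.

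With the neighbouring pairs set aside, pairs under 20 kb apart still held 24.5% and 25.8% of the remaining counts in NPC cells against 14.7% and 15.0% in iPS cells. When only pairs over 50 kb apart were counted, the share over 200 kb was higher in iPS cells in the Olig1-Olig2 region (50.8% and 52.5% against 45.5% and 45.3%) and in the Sox2 region (56.6% and 57.6% against 52.8% and 51.4%). In the Oct4, Nanog, Nestin and Klf4 regions the 2 groups overlapped on that measure. Each region was also divided into 20 strata with equal numbers of pairs. The share of counts in each stratum was tested with edgeR's quasi-likelihood test. Of the 140 strata, 131 differed (93.6%), 122 of them higher in iPS cells (87.1%) and 9 lower (6.43%), and the nearest stratum was lower in all 7 regions. Without neighbouring fragments 110 strata differed (78.6%, with 99 or 70.7% higher and 11 or 7.86% lower), and without all pairs within 50 kb 50 did (35.7%, with 34 or 24.3% higher and 16 or 11.4% lower). Of those last calls the Olig1-Olig2 region held 12 higher, at a median distance of 471 kb, and 4 lower, at 96.2 kb. The Sox2 region held 8 higher, at 374 kb, and 4 lower, at 129.9 kb. The Klf4 region held 8 higher and none lower. The share in a stratum falls when another stratum's share rises, so these calls are not independent.

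**Figure D2:**
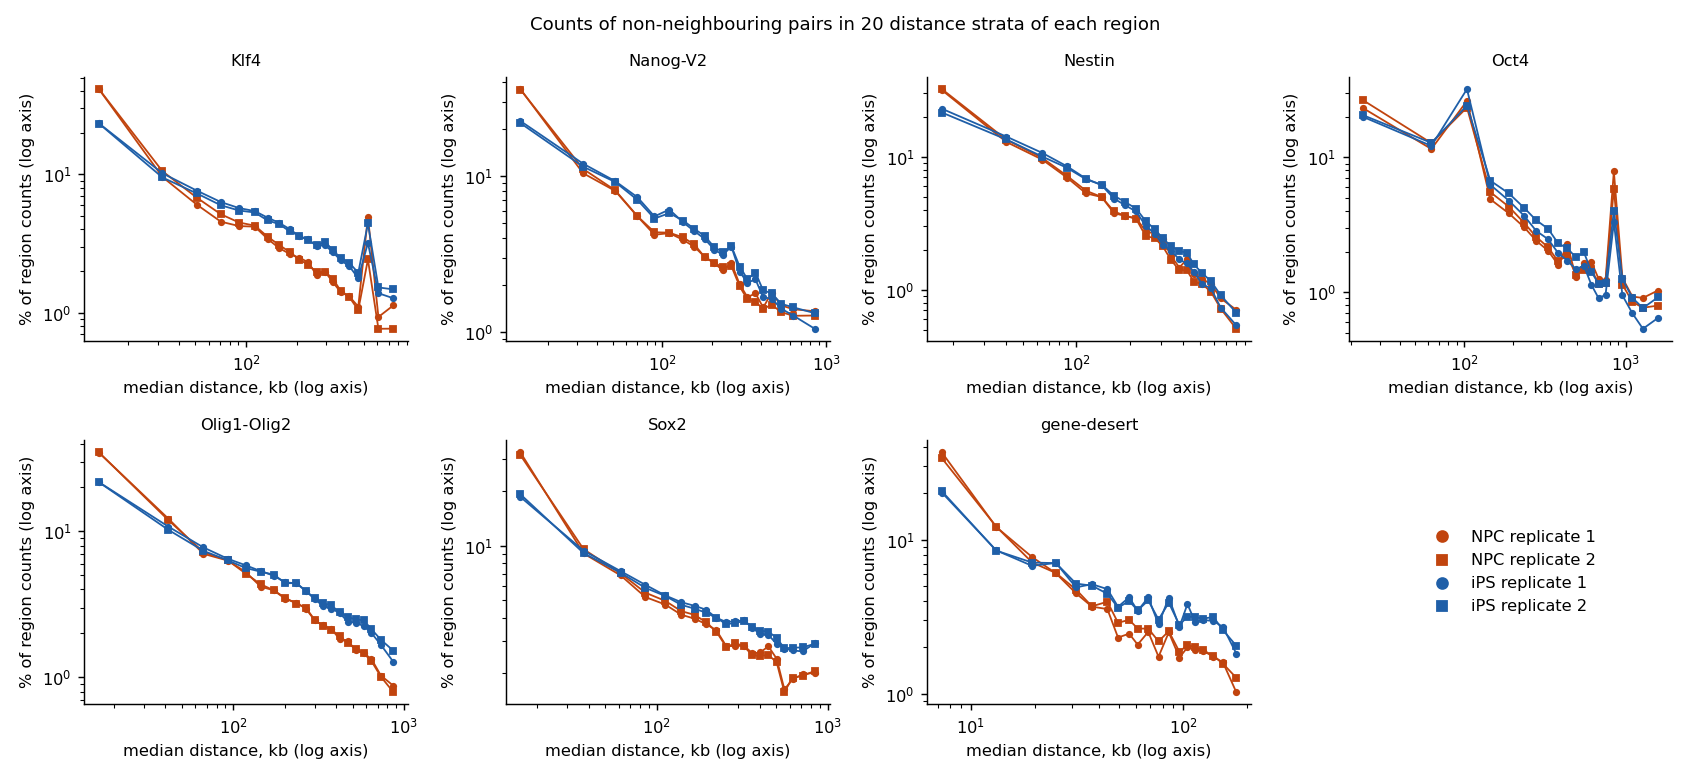
Share of each region's counts (y axis, percent, log axis) in the 20 distance strata, drawn at their median distance (x axis, kb, log axis), for non-neighbouring pairs only. Lines are single libraries. iPS libraries (blue) lie below the NPC libraries (orange) in the nearest stratum of each region.

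Because of this difference, contacts were compared at equal region and distance. Equal distance means the same 1 of the 20 strata of a region, within which distances still differ. For each library the count of a pair was divided by the count expected from its region and distance stratum, so that an observed/expected value of 1 is the mean of pairs at that distance in that library. edgeR's quasi-likelihood test on the counts, with the expected counts as offset, called 4731 of 75889 pairs at a Benjamini-Hochberg adjusted p of at most 0.05, which is 6.23%. Of these, 3268 (4.31%) were higher and 1463 (1.93%) lower in iPS cells. The median log2 difference over all pairs was 0.16. The excess of higher calls shrank with finer strata. With 10 strata 4932 pairs were higher and 1670 lower (median log2 0.20), and with 40 strata 2651 and 1412 (0.14). When the total of each primer was also balanced, 9580 pairs were called (12.6%, with 6313 or 8.32% higher and 3267 or 4.3% lower). 3030 pairs (3.99%) were called the same way in both fits, 2146 higher (2.83%) and 884 lower (1.16%), and 43 were called in opposite directions. Without neighbouring fragments the fit called 3839 of 74723 pairs (5.14%, with 2495 or 3.34% higher and 1344 or 1.8% lower), and balanced as well 4236 (5.67%, with 2643 or 3.54% higher and 1593 or 2.13% lower). The direction of the majority depended on the scaling. Library totals alone gave 17331 higher and 1948 lower with a median log2 of 0.80, and TMM scaling gave 3006 higher and 4378 lower with a median of 0.07. Leaving out iPS replicate 1 reduced the calls from 4731 to 1331, and leaving out NPC replicate 1 to 2634.

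Pairs called higher were nearer than pairs called lower. Their median distance was 115 kb against 172 kb, and 282 kb for all pairs tested. Of pairs under 50 kb apart, 14.5% were called higher and 3.94% lower. Without neighbouring fragments the first of these shares was 8.09%. Beyond 800 kb, 1.98% were called higher and 0.870% lower, at a median of 19.7 counts against 284.8 for pairs under 50 kb. The regions differed in how many pairs were called. The Olig1-Olig2 region had the highest share, 9.67% (1044 higher and 500 lower of 15975). Oct4 followed with 6.78%, Nestin with 6.19%, Sox2 with 4.91%, Nanog with 4.12% and Klf4 with 3.80%. The gene desert had 0.987% (6 of 608). With balanced primers the order changed, with Nestin at 16.6%, Oct4 at 16.5% and Olig1-Olig2 at 12.8%, and the gene desert was again lowest at 4.28%. The regions differ in the distances their pairs span, and the gene desert spans only 0.198 Mb.

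Primers with few counts in 1 group touch the calls in the Olig1-Olig2 region. In both NPC libraries 3 primers there had under 10% of their lowest observed/expected level in any other library. Primer 193F, for the fragment chr16:91242595-91247280 between Olig2 and Olig1, had 78 and 85 counts in the NPC libraries against 5365 and 5768 in the iPS libraries. Primer 152F (chr16:91127313-91129152) had 349 and 126 counts against 10036 and 9131, and 286R (chr16:91525101-91529041) had 200 and 168 against 8692 and 8592. Of the 300 pairs on these primers, 258 were called higher in iPS cells, but only 20 in both fits. Without them the region had 1286 called pairs, 8.20%, of which 786 were higher and 500 lower. Both largest rises of that region rest on them: 152F with its neighbour 151R (3 and 1 counts against 1635 and 1945) and 193F with its neighbour 192R. The latter had no count in either NPC library and 672 and 726 in the iPS libraries, at least 1146-fold higher at equal distance with 3 counts over the NPC group as the floor. A lack of these ligations in NPC cells and a failure of the primers in both NPC libraries cannot be told apart from the counts.

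Counts were also summed over squares of 50 kb by 50 kb, which averages over primers and pairs. Of 2018 such blocks with at least 3 pairs, 760 were called by edgeR's quasi-likelihood test (37.7%), 477 higher (23.6%) and 283 lower (14%). With balanced primers 1046 blocks were called (51.8%, with 713 or 35.3% higher and 333 or 16.5% lower), and without neighbouring fragments 744 (36.9%, with 457 or 22.7% higher and 287 or 14.2% lower). Leaving out iPS replicate 1 reduced the calls from 760 to 461. In the Olig1-Olig2 region 52.2% of the blocks were called, in Sox2 47.1%, in Nestin 43.4%, in Oct4 34.3%, in Nanog 30.8% and in Klf4 25.2%. None of the 10 blocks of the gene desert was called in that fit, in which 959 of all 2018 blocks had an unadjusted p under 0.05, and 1 of its blocks was lower with balanced primers.

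**Figure D3:**
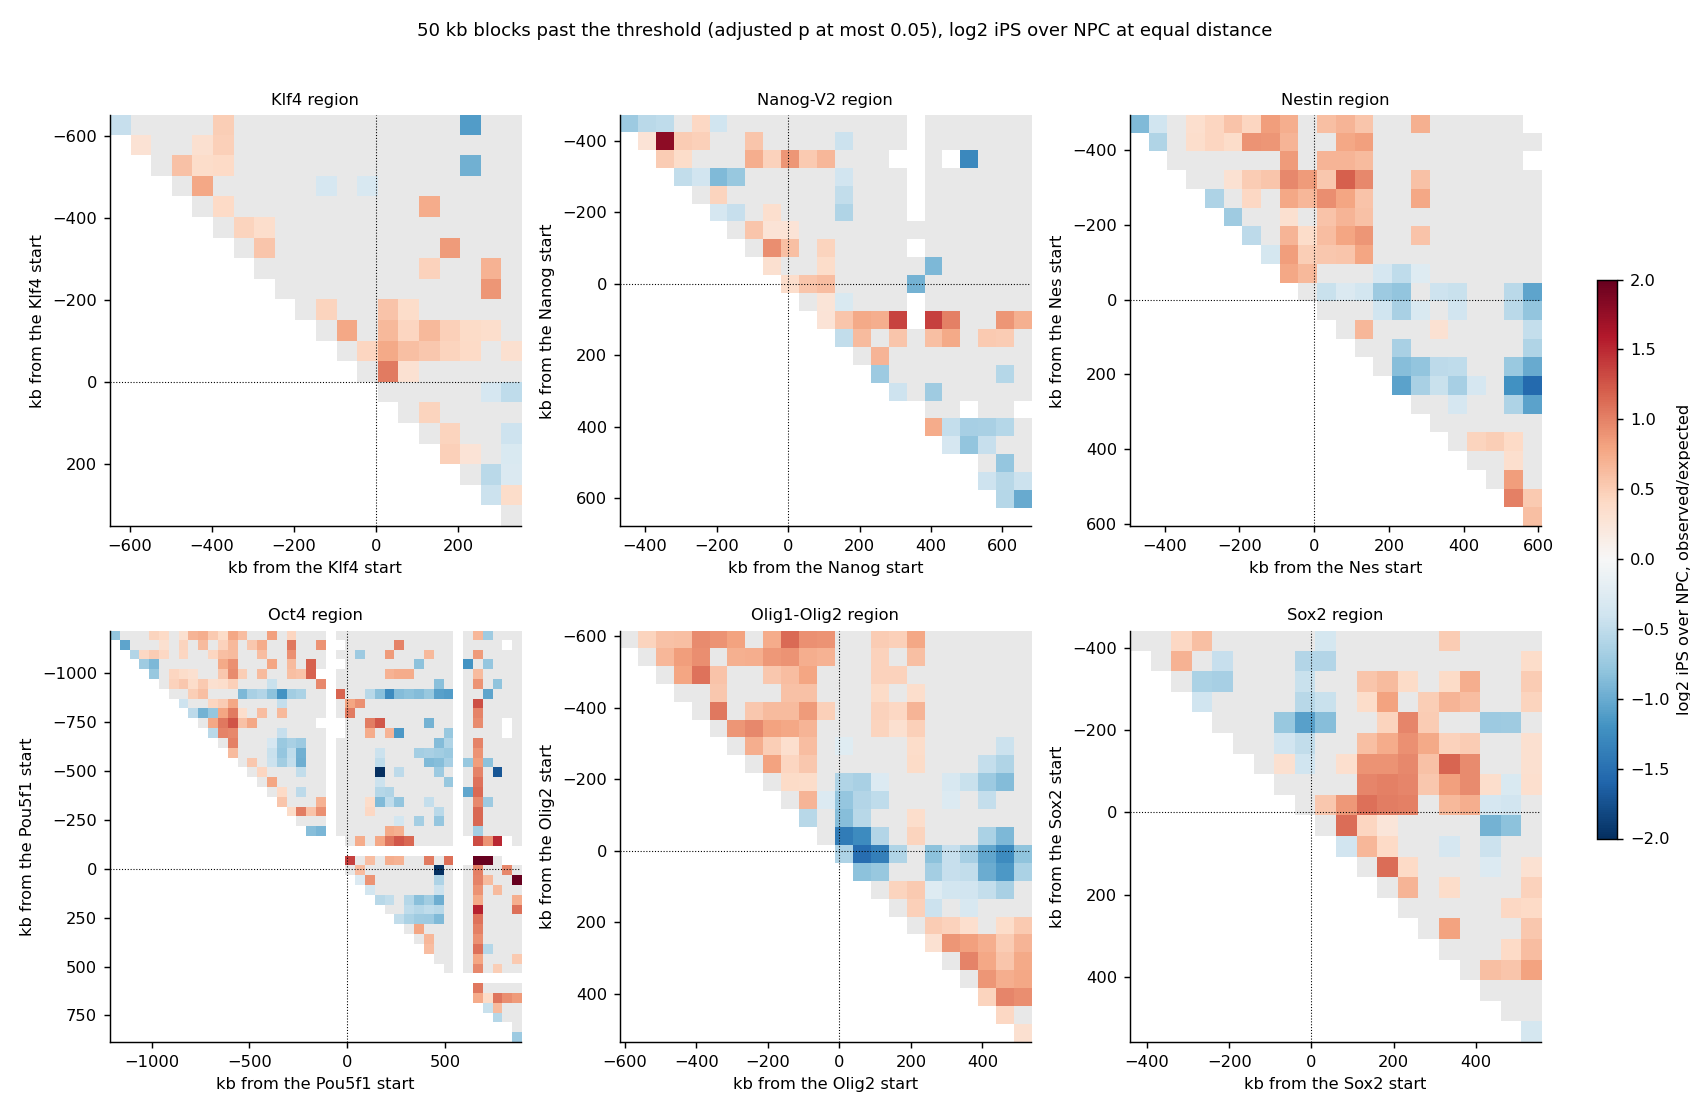
Maps of the 50 kb blocks of 6 regions; both axes are kb from the start of the region's main gene (dotted lines), along the chromosome. Red blocks were higher and blue blocks lower in iPS cells at equal distance (colour scale, log2, limited to 2 in either direction); grey blocks did not pass the threshold and white squares were not tested. The maps show the fit without balanced primers, in which blocks around Olig2 and far downstream of Nes are blue, and those downstream of Sox2 and next to Klf4 are red.

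Around the progenitor genes Olig1 and Olig2, contacts were lower in iPS cells in the fit without balanced primers, and much of that difference lay in the totals of the primers. Of the 23 blocks that hold the start of Olig2, 15 were lower and none was higher, and for Olig1 13 of 23 were lower and none was higher. The block that joins the 50 kb around Olig2 (chr16:91211387-91261386) with the next 50 kb, which hold Olig1 (chr16:91261387-91311386), had observed/expected values of 2.30 and 1.79 in the NPC libraries and 0.636 and 0.784 in the iPS libraries. ES cells had 0.473 and 0.518. The groups did not overlap, and the log2 difference was -1.52 (SE 0.14, adjusted p = 2.8e-05 by edgeR's quasi-likelihood test). Of its 56 pairs 25 were called lower and 6 higher. With balanced primers the difference was smaller, -0.21 with an adjusted p of 0.012, and 10 of the 23 Olig2 blocks were then higher and 6 lower. The test of primer totals over all kept pairs called 309 of 1544 primers (20%), 138 higher (8.94%) and 171 lower (11.1%), and 107 without iPS replicate 1, 166 without NPC replicate 1 or 113 without NPC replicate 2. The primers of both promoters were among those lower. Olig2's was lower by 1.34 on the log2 scale (SE 0.29, adjusted p = 0.0109 by edgeR's quasi-likelihood test). Olig1's was lower by 1.26 (SE 0.20, adjusted p = 0.00254 by the same test).

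Single contacts of the Olig2 promoter fragment (chr16:91223419-91228260), whose promoter letters are given above, included large falls, which stayed below 0 with balanced primers while the fragment's median did not. Of its 105 contacts 12 were lower and 2 higher, at a median log2 of -0.49. With balanced primers 7 were lower and 5 higher at a median of 0.14, and 6 were lower and none higher in both fits. Distances from a gene start below are to the middle of the fragment. Its contact of lowest p, with the fragment 4.6 kb from the Olig1 start (chr16:91263999-91266859), had observed/expected values of 8.21 and 4.09 in NPC cells and 0.514 and 0.641 in iPS cells. ES cells had 0.158 and 0.140, and the log2 difference was -3.39 (SE 0.37, adjusted p = 1.1e-05 by edgeR's quasi-likelihood test; -1.68 with balanced primers, adjusted p = 0.00021). A fragment 33.1 kb from the Olig1 start (chr16:91299841-91306324) was the partner in 3 larger falls. With the Olig2 promoter it had 9.97 and 3.83 in NPC cells against 0.112 and 0.482, a log2 difference of -4.47 (-2.43 balanced). With a fragment 4.2 kb from the Olig2 start (chr16:91229691-91230342) it had 19.2 and 10.7 against 0.465 and 0.670 (-4.69, or -2.56 balanced). With one 9.0 kb from the Olig1 start (chr16:91258013-91263997) it had 10.4 and 6.19 against 0.273 and 0.377 (-4.64, or -1.85 balanced). In all 3 the NPC values stood well above 1 and the iPS values below it. These levels are not balanced for primer totals, so the crossing of 1 is stated for the fit without balancing only.

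The Olig1 promoter fragment (chr16:91267102-91274338) had 133 contacts, of which 32 were lower and 2 higher. In the balanced fit 11 were lower and 13 higher. Its contact with chr16:91350574-91353041, 81.1 kb away on the side of the cytokine receptor gene Il10rb, had 20.7 and 12.4 in NPC cells and 2.45 and 2.45 in iPS cells, with 4.21 and 4.03 in ES cells (log2 difference -2.75, SE 0.33, adjusted p = 2.8e-05 by edgeR's quasi-likelihood test; -1.37 balanced). Its contact of lowest p, with 193F, rests on a primer with few NPC counts: 0 and 0 counts against 164 and 155, at least 134-fold higher. Fragment 189F (chr16:91230344-91235133), whose near edge lies 1.4 kb past the end of Olig2, had the most lower contacts of the region in both fits, 20 of 136. All 94 higher blocks of the region lay away from both gene starts. The largest block rise, 1.13 (SE 0.17, adjusted p = 0.00039 by edgeR's quasi-likelihood test), joined 2 blocks 450 kb apart at lower coordinates than Olig2 (chr16:90611387-90661386 with chr16:91061387-91111386), at 0.601 and 0.429 in NPC cells against 1.20 and 1.05. Fragment 29F inside Urb1, a ribosome biogenesis gene, had 27 of 114 contacts higher and 1 lower in both fits, whereas the promoter fragment of Urb1 had 37 of 134 contacts lower and none higher. Balanced, that promoter had 8 lower and 8 higher. Ifngr2, an interferon gamma receptor gene and the one with the most promoter contacts called in both fits, had 35 higher and 4 lower of 439, or 28 and 18 balanced. It has 4 promoter fragments, and its share called, 8.88%, was under the 9.67% of the region. In both fits 5.47% were called, against 4.76% in the region, 10.5% for the splicing factor gene Son and 9.02% for Olig1.

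Nes, in the Nestin region, had lower promoter contacts in iPS cells. Its promoter lies on a HindIII fragment, chr3:87759491-87793437, that is far longer than the median fragment of 2591 bp and also holds part of the brain proteoglycan gene Bcan. Of its 94 contacts 20 were lower and none was higher, and 12 were lower in both fits. This primer was lower over all its pairs by 0.55 on the log2 scale (SE 0.12, adjusted p = 0.0125 by edgeR's quasi-likelihood test). The balanced fit called 15 of the contacts lower and 8 higher. Among the 22 blocks with the Nes start, 9 were lower and 5 higher, and balanced 5 were lower and 9 higher. The largest fall lay at higher coordinates, where the block 557 to 607 kb from the start had 1.91 and 1.85 in NPC cells and 0.743 and 1.05 in iPS cells (log2 difference -1.06, SE 0.21, adjusted p = 0.0021 by edgeR's quasi-likelihood test). The largest rise lay at lower coordinates, where the block at -343 to -293 kb had 0.336 and 0.427 in NPC cells and 0.617 and 0.755 in iPS cells (0.84, SE 0.17, adjusted p = 0.0025).

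Lmna, which encodes the nuclear lamins A and C, gave a contact of Nes that passed with and without balancing, and with and without neighbouring fragments. It joins the Nes fragment with chr3:88294862-88297660 inside Lmna, 520 kb away, and had 9.48 and 8.82 in NPC cells against 2.52 and 2.87 in iPS cells, with 1.99 and 1.77 in ES cells (log2 difference -1.75, SE 0.33, adjusted p = 0.003 by edgeR's quasi-likelihood test; -1.84 balanced). Without iPS replicate 1 its adjusted p was 0.0551. Another contact of the Nes fragment, with chr3:88021263-88024466 near the ammonium transporter gene Rhbg, had 4.10 and 4.17 against 0.483 and 0.632 (-2.85, SE 0.37, adjusted p = 7.7e-05; -0.98 balanced). Balanced and without neighbouring fragments, that contact gave -0.34 with an adjusted p of 0.453. The largest block fall of the region was away from Nes, between 2 blocks 350 kb apart at higher coordinates, the farther of which holds Mex3a, Rab25 and Ubqln4. It had 2.20 and 1.71 in NPC cells and 0.580 and 0.751 in iPS cells (-1.55, SE 0.17, adjusted p = 6.7e-05), and 12 of its 27 pairs were lower and none higher. ES cells had 1.01 and 0.887 there. The gene of the region with the most promoter contacts called in both fits was Mrpl24, for a mitochondrial ribosomal protein, with 25 higher and 1 lower of 354, or 32 and 23 balanced. It has 4 promoter fragments, and its 7.34% called lay near the 6.19% of the region. In both fits 5.37% were called, against 4.16% in the region and 12.8% for Nes.

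Sox2 had higher contacts with some partners and lower contacts with others. Its promoter primer did not pass the test over all its pairs (log2 0.05, adjusted p = 0.88 by edgeR's quasi-likelihood test). Of the 20 blocks with the Sox2 start 7 were higher and 8 lower, and with balanced primers 9 were higher and 8 lower. The largest rise lay downstream. The block 108 to 158 kb downstream of the start had 0.660 and 0.504 in NPC cells and 1.26 and 1.25 in iPS cells, with 1.65 and 1.63 in ES cells (log2 difference 1.11, SE 0.13, adjusted p = 1.0e-04 by edgeR's quasi-likelihood test; 0.92 balanced). Of its 87 pairs 28 were called higher and none lower. The largest fall lay upstream. The block that joins the Sox2 block (chr3:34507374-34557373) with the one 200 kb before it (chr3:34307374-34357373) had 2.00 and 2.06 in NPC cells and 0.947 and 0.961 in iPS cells, with 0.866 and 0.828 in ES cells (-1.09, SE 0.09, adjusted p = 2.4e-05 by edgeR's quasi-likelihood test; -1.05 balanced). Of its 119 pairs 20 were called lower and none higher. In both blocks the iPS and NPC libraries did not overlap.

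Several lower contacts upstream of Sox2 shared 1 place. Fragments 73R (chr3:34341260-34343067) and 74F (chr3:34343069-34344642) are neighbours about 205 kb before the gene and hold no gene of the authors' list. The Sox2 promoter fragment (chr3:34549388-34558024) with 73R had 17.7 and 11.6 in NPC cells and 2.51 and 2.80 in iPS cells, with 1.87 and 1.25 in ES cells (log2 difference -2.45, SE 0.35, adjusted p = 0.00019 by edgeR's quasi-likelihood test; -1.87 balanced). A fragment 11.6 kb from Sox2 with 73R had 6.32 and 3.65 against 0.237 and 0.667 (-3.37). Fragment 74F with one 88.8 kb from Sox2 had 6.75 and 4.74 against 0.246 and 0.457 (-3.95). Over all its 122 contacts 74F had 27 lower and 2 higher in both fits. The Sox2 promoter contact with chr3:34985100-34988340, 433 kb downstream, was at 38.7 and 20.6 in NPC cells against 5.34 and 4.31 in iPS cells (-2.61, SE 0.38, adjusted p = 0.00025; -2.05 balanced), so that a single contact downstream fell too. Of the promoter's 129 contacts 20 were lower and 3 higher, 19 and 3 in both fits, and 17.1% were called in both fits against 3.99% of all pairs.

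The window 100 to 120 kb downstream of Sox2 covers the Sox2 control region, the enhancer cluster that drives Sox2 in ES cells. It holds 2 measured contacts of the promoter. The contact with chr3:34647236-34652179 had 12.2 and 3.74 in the NPC libraries and 18.4 and 13.7 in the iPS libraries, with 20.7 and 15.8 in ES cells. The NPC libraries lay far apart, and the log2 difference of 1.01 had an adjusted p of 0.122 by edgeR's quasi-likelihood test. Without NPC replicate 1 the difference was 2.09. By the same test the contact passed with balanced primers (0.59, adjusted p = 0.0139). It also passed with library totals (1.31, adjusted p = 0.00717), which leave distance uncorrected and gave a median log2 of 0.80 over all pairs. It did not pass with TMM scaling or with DESeq2, nor without neighbouring fragments (0.98, adjusted p = 0.136). Balanced as well as without neighbouring fragments it passed (0.87, adjusted p = 0.00155). The second contact, with chr3:34663894-34664647, had 3.66 and 2.02 against 1.11 and 2.53, and overlapped. The largest rise of the region was between fragments 19.4 kb and 132 kb from Sox2, on either side of it. It had 0.0737 and 0.0586 in NPC cells against 2.64 and 0.828 in iPS cells (4.22, SE 0.58, adjusted p = 0.00013; 4 and 4 counts against 168 and 49). Fragment 142R, whose near edge lies 24.7 kb before the start of Sox2, had 22 of 130 contacts higher and 1 lower in both fits.

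Klf4 was the gene of its region with the most promoter contacts called in both fits. Of 214 contacts of its 2 promoter fragments 5 were higher and 8 lower, or 7 and 17 balanced. The share called was 6.07%, against 3.80% in the region and 6.23% of all pairs. In both fits 4 were higher and 7 lower, which is 5.14% against 2.04% in the region. Of 20 blocks with its start 3 were higher and 1 lower, or 8 and 1 balanced. The block of Klf4 with the next 50 kb at higher coordinates, which lie upstream of this minus-strand gene, had 0.205 and 0.222 in NPC cells and 0.455 and 0.420 in iPS cells, with 0.384 and 0.417 in ES cells (log2 difference 1.04, SE 0.11, adjusted p = 5.6e-05 by edgeR's quasi-likelihood test; 0.94 balanced). It did not pass with TMM scaling (0.19, adjusted p = 0.312). The window 50 to 70 kb downstream, where distal Klf4 enhancers of ES cells lie, held 3 contacts. One of them, chr4:55475248-55477190 with chr4:55544688-55548640, rose from 0.0537 and 0.0253 to 0.256 and 0.412 (2.64, SE 0.61, adjusted p = 0.0115; 3 and 2 counts against 24 and 35), and missed the threshold without NPC replicate 2 (adjusted p = 0.0972) or without iPS replicate 2 (0.0632). The other 2 overlapped between the groups. The contact that follows is of chr4:55539389-55544686, the promoter fragment that does not hold the Klf4 start. The promoter contact of lowest p fell, from 2.59 and 2.37 to 0.155 and 0.630, with a fragment 303 kb upstream (-2.53, SE 0.55, adjusted p = 0.0079), and missed the threshold without iPS replicate 1 (adjusted p = 0.130). The largest block fall of the region, between blocks 850 kb apart, rested on 1 pair (323F with 14R, 838 kb) that held 76.3% and 45.5% of its NPC counts. Without that pair the mean observed/expected values were 0.812 and 0.791 in NPC cells against 0.983 and 0.790 in iPS cells. The block missed the threshold without NPC replicate 1 (adjusted p = 0.290), iPS replicate 1 (0.0928) or iPS replicate 2 (0.0627).

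Pou5f1, the gene of Oct4, had 406 contacts over 3 fragments, of which 33 were higher and none lower. The share called was 8.13%, against 6.78% in the Oct4 region. Balancing the primers turned the majority, to 17 higher and 24 lower, and 12 were higher in both fits. Balanced, 10.1% were called against 16.5% in the region, and in both fits 2.96% against 5.02%. One of the Pou5f1 primers (chr17:35633986-35641098) was higher over all its pairs by 1.10 on the log2 scale (SE 0.13, adjusted p = 0.00065 by edgeR's quasi-likelihood test). The contact of lowest p was near, 18.5 kb, between chr17:35619819-35627528 and the promoter fragment chr17:35641100-35643151. It had 0.407 and 0.479 in NPC cells and 1.49 and 1.72 in iPS cells, with 2.63 and 3.04 in ES cells (log2 difference 1.85, SE 0.27, adjusted p = 0.00028 by edgeR's quasi-likelihood test). Without neighbouring fragments it was 1.05 (adjusted p = 0.0181), balanced as well it was -0.26 (adjusted p = 0.267), and with TMM scaling it was 0.76 (adjusted p = 0.208). The neighbouring pair of 2 Pou5f1 fragments (285F with 284R) overlapped, at 2.33 and 1.93 against 1.91 and 2.46, with a log2 difference of 0.04 that was -0.99 when balanced.

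Single pairs of very high count dominated parts of the Oct4 region. The largest block fall at the Pou5f1 block, -2.45 with a block 450 kb away that holds Abcf1, Prr3 and Gnl1, rested on 1 pair (291F with 396R), which had 94.3% and 88.9% of the block's NPC counts. That pair had observed/expected values of 326 and 203 in NPC cells against 16.5 and 50.6 in iPS cells. The other 37 pairs averaged 0.660 and 0.789 against 0.586 and 0.725, with none called. Over all regions 8 pairs held more than 20% of the counts of their stratum in some iPS or NPC library, 5 of them in the Oct4 region, and without them 4701 pairs were called. Fragment 447F (chr17:36288268-36291497) had the most changed contacts of all fragments, 83 of 162 higher in both fits. In the NPC libraries 71.4% and 63.5% of its counts lay in the single contact with 235R, 820 kb away, against 25.5% and 29.5% in the iPS libraries. It lies in 2410017I17Rik, in the major histocompatibility complex, where class I genes form a family of similar copies. Reads there may be split between copies, which was not tested, so the contacts of 447F remain uncertain. The same holds for the largest block rise of the region, 2.80 (1.58 balanced) over 3 pairs between H2-Q10 and that place. The largest fall by pair, between fragments near Vars and in Vars2 640 kb apart, went from 234 and 149 to 9.26 and 10.8 and is 1 of those 8 pairs (-4.25, SE 0.37, adjusted p = 3.9e-07 by edgeR's quasi-likelihood test). Fragment 387F, over Ppp1r10, Mrps18b and Atat1, had 17 of 122 contacts lower in both fits and none higher. The gene of this region with the most promoter contacts called in both fits was Mdc1, of the DNA damage response, with 16 higher and 22 lower of 465, or 27 and 46 balanced. It has 4 promoter fragments, and 8.17% were called against 6.78% in the region. In both fits 7.53% were called, against 5.02% in the region, 13.9% for Mrps18b and 11.3% for Zbtb12.

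Nanog, listed by the authors under the model Nanogpd between Dppa3 and Slc2a3, had 282 contacts over 4 fragments. Of these 11 were higher and none lower (3.90% called, near the 4.12% of the region and under the 6.23% of all pairs). With balanced primers 11 were higher and 8 lower. The contact of lowest p spanned the gene, 10.7 kb from chr6:122653114-122656478, a promoter fragment that ends before the Nanog start, to chr6:122664498-122666498. It had 0.479 and 0.400 in NPC cells, 1.86 and 1.43 in iPS cells and 4.56 and 5.30 in ES cells (log2 difference 1.90, SE 0.23, adjusted p = 3.8e-05 by edgeR's quasi-likelihood test). Without neighbouring fragments it was 0.99 (adjusted p = 0.0123), balanced as well 0.29 (adjusted p = 0.144), and with TMM scaling 0.28 (adjusted p = 0.677). Here the iPS values lay between the NPC and ES values. Nanog's block had 6 higher and 1 lower of 23 block contacts, or 4 and 4 balanced. The highest was with the block at -371 to -321 kb from the gene, which holds the start of the Polycomb gene Phc1, at 0.686 and 0.623 against 1.25 and 1.16 (0.88, SE 0.11, adjusted p = 0.00012; 0.49 balanced).

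Phc1 and its neighbour M6pr, a receptor for lysosomal enzymes, carried the largest block rise of the Nanog region. The 2 adjoining 50 kb blocks over these genes had 0.230 and 0.268 in NPC cells and 0.955 and 0.763 in iPS cells, with 0.855 and 0.988 in ES cells (log2 difference 1.79, SE 0.13, adjusted p = 1.6e-05 by edgeR's quasi-likelihood test; 0.94 balanced). Of the 96 pairs 23 were higher and none lower. The Phc1 promoter had 30 of 202 contacts higher and none lower, and in the balanced fit 10 higher and 53 lower. Both named pair rises joined fragments inside Phc1 with one 6.7 kb from it. The 13.1 kb contact had 0.125 and 0.0898 in NPC cells against 2.23 and 1.06 (3.92, or 2.60 balanced). The 7.84 kb contact had 0.0517 and 0.0710 against 1.06 and 0.767 (3.86, or 2.33 balanced). Without neighbouring fragments the 2 log2 differences were 2.99 and 2.97. Balanced as well, their adjusted p was 0.0419 and 0.00655 by edgeR's quasi-likelihood test. The largest block fall of this region had only 4 pairs and missed the threshold without NPC replicate 2 or without either iPS library (adjusted p from 0.0706 to 0.0971).

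In calls of pairs and blocks at equal distance the gene desert changed least. Its primers were not the least changed: 12% of its 50 primers were called, against 10.2% in Sox2. Nor were its distance strata without neighbouring fragments, where 16 of 20 were higher and 2 lower. Without all pairs within 50 kb, 1 of its 20 strata was higher and none lower, the fewest of any region. Its 2 largest rises were short, 7.47 and 5.96 kb. They had 0.128 and 0.157 in NPC cells against 0.403 and 0.316 (1.33, adjusted p = 0.0094 by edgeR's quasi-likelihood test), and 0.340 and 0.332 against 0.841 and 0.616 (1.11, adjusted p = 0.0127). Without neighbouring fragments neither passed (adjusted p = 0.258 and 0.517), and under library totals or TMM both were below 0. Of its 563 non-neighbouring pairs 2 were called (0.355%), against 5.14% in all regions.

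In each region up to 2 rises and 2 falls, the largest among pairs of at least 50 mean counts that passed in both fits without overlap between the groups, were followed through all fits. Of these 26 pairs, 20 passed in both fits without neighbouring fragments. Of the 12 falls 4 stayed above 1 in every NPC and iPS library, and no rise did. Without balancing, these 4 contacts thus remained over the mean of their distance in iPS cells. The log2 differences of the falls ran from -4.69 to -2.26.

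**Figure D4:**
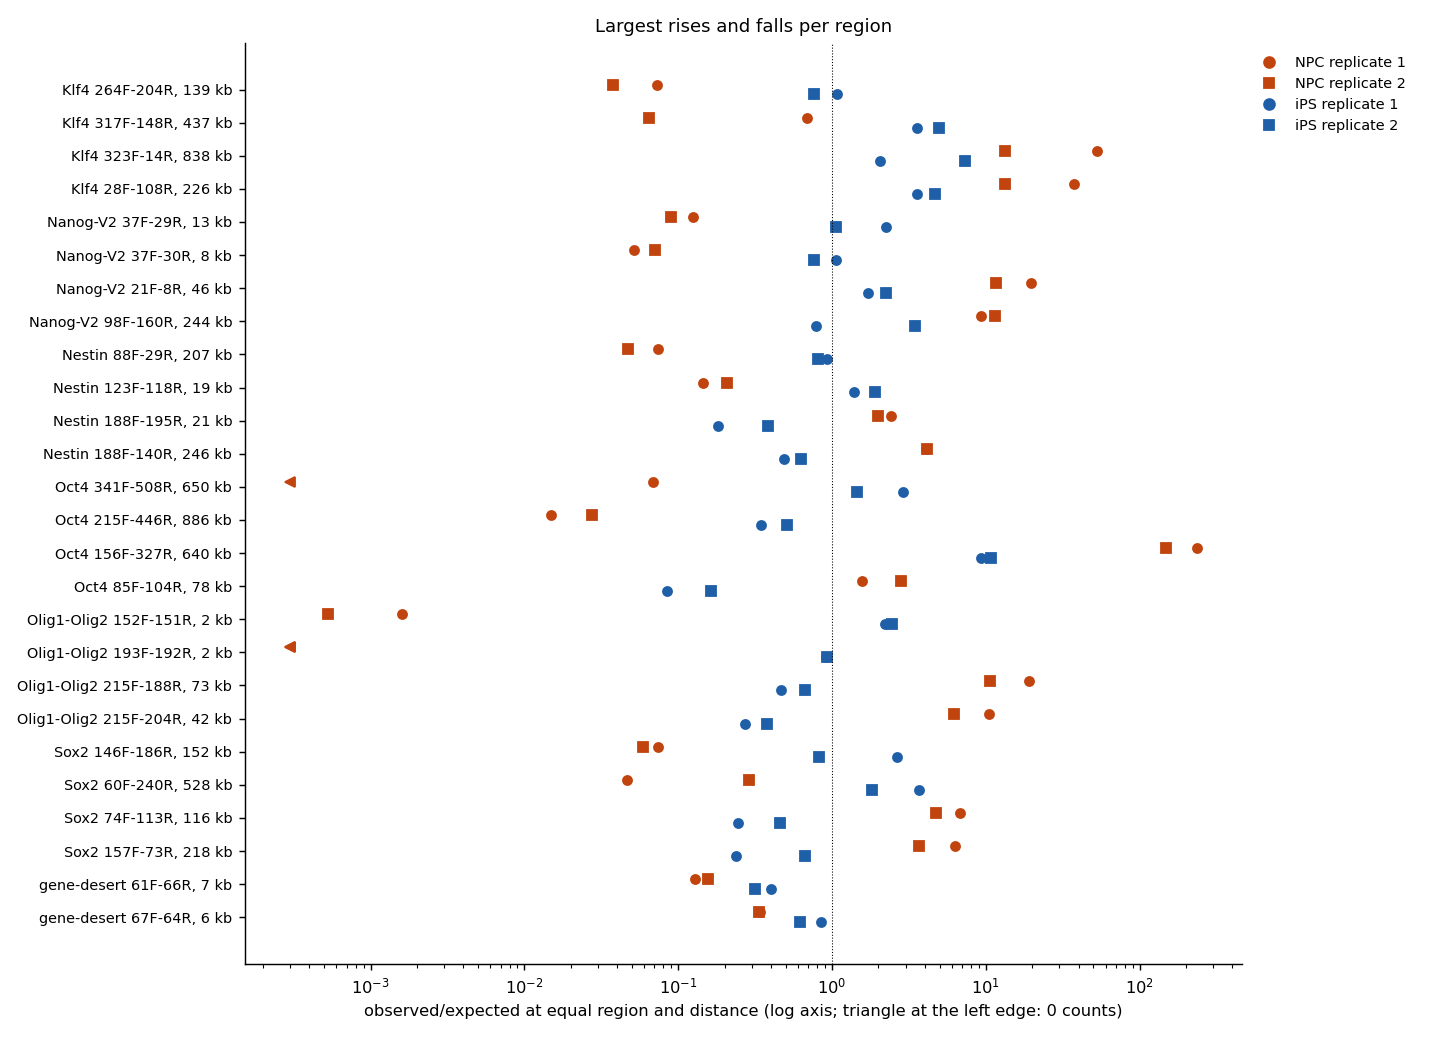
Observed/expected values (x axis, log axis) of the pairs with the largest rises and falls in each region (y axis, primer names and distance). Points are single libraries, orange for NPC and blue for iPS; a triangle at the left edge is a count of 0 and the dotted line is the mean of pairs at that distance. In each pair shown the 2 groups do not overlap.

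**Figure D5:**
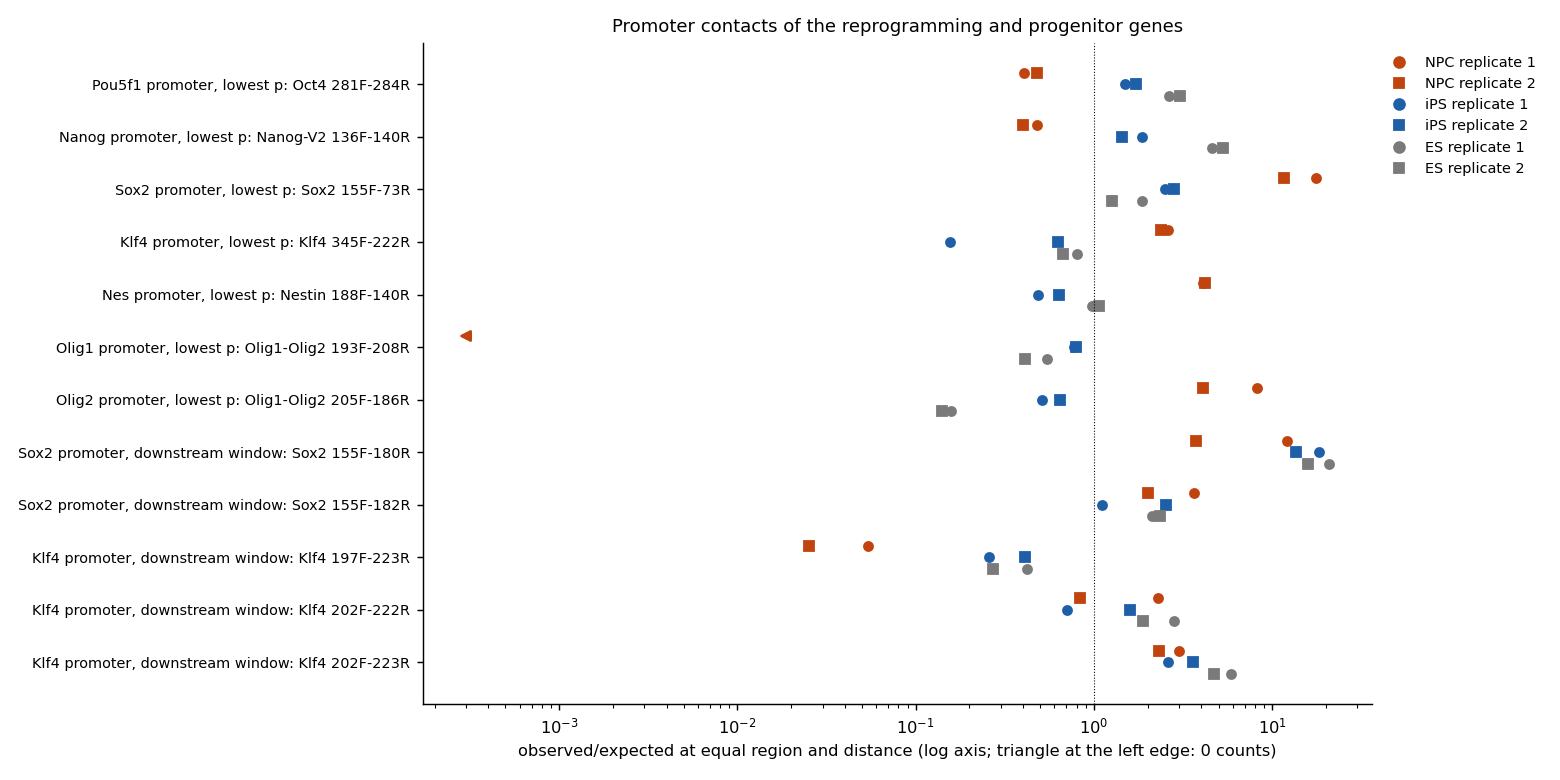
Observed/expected values (x axis, log axis) of the promoter contacts of lowest p and of the downstream windows of Sox2 and Klf4 (y axis), with NPC in orange, iPS in blue and ES in grey. The triangle is the Olig1 contact with no count in either NPC library. The Olig2, Nes, Sox2 and Klf4 contacts of lowest p are lower in iPS cells, and those of Pou5f1 and Nanog are higher.

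The submitters had classed pairs of 20 kb bins by the cell types in which they were high. In the authors' deposited table, 1680 tested pairs fell in bin pairs classed as NPC only, and 26.8% of them were lower and 0.476% higher in the fit at equal distance. Of 410 pairs in the iPS-only class 19.3% were higher and none lower, and of 177 in the class of ES and iPS 19.2% were higher and none lower. In the background class 4.76% of 8355 pairs were higher and 0.503% lower. The classes and the fit use the same reads, so this describes how they relate and is no independent support. By region, the authors' deposited table put 21.8% of classed bin pairs in the NPC-only class in Olig1-Olig2, 17.0% in Nestin, 16.2% in Sox2, 5.53% in Klf4 and 2.24% in the gene desert, with Nanog and Oct4 between Sox2 and Klf4. Of the 26 named pairs 22 had a value in the authors' deposited table, and 19 of these differed in the same direction there; 2 of the 3 others rest on the primers with few NPC counts.

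RNA was read beside the contacts for the genes in the regions. Reads assigned to gene models numbered 1150624 and 3644461 in the NPC libraries and 5444578 and 6181280 in the iPS libraries. In such bulk RNA, fewer cells of a type and less RNA per cell cannot be told apart. Olig2 had 1601 and 1885 CPM in NPC cells against 16.3 and 14.0 (log2 difference -6.83, SE 0.17, adjusted p = 2.8e-24), and Olig1 differed by -7.87. Nes was low in both groups in these counts, 3.35 and 4.06 CPM against 0.619 and 0.340 (-2.52, SE 0.65, adjusted p = 0.0017 by edgeR's quasi-likelihood test), and missed the threshold without NPC replicate 2 (adjusted p = 0.101) or iPS replicate 2 (0.0532). Bcan, part of which lies on the Nes fragment, had 198 and 284 CPM against 0.206 and 0.511. Sox2 had 251 and 247 CPM in NPC cells and 111 and 117 in iPS cells (-1.12, SE 0.15, adjusted p = 1.1e-07). Thus Sox2 RNA was lower in iPS cells while its contacts with the block 108 to 158 kb downstream were higher, and ES cells, where that block was also higher, had 477 and 576 CPM. Klf4 had 10.0 and 10.1 CPM against 358 and 280 (4.95, SE 0.20, adjusted p = 1.2e-19), and Nanog 0 and 0 against 3.51 and 4.09 (adjusted p = 0.00015, or 0.0563 without NPC replicate 2). Lmna was higher, 17.6 and 23.2 CPM against 373 and 306, where its contact with Nes was lower.

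Promoters were then grouped by the RNA call of their gene. The 11 promoters of genes with lower RNA had 6.04% of their contacts higher and 6.87% lower, and the 32 of genes with higher RNA had 4.77% and 3.48%. For the 24 genes not called the shares were 4.30% and 2.75%, beside 4.31% and 1.93% of all pairs. With balanced primers the shares lower were 10.7%, 9.70% and 9.20%, beside 4.3% of all pairs, and the shares higher 6.71%, 6.54% and 7.29%, beside 8.32%. Of the 133 lower contacts of the group with lower RNA, Olig1 holds 32, Nes and Sox2 20 each, Bcan 16 and Olig2 12. Promoters on 1 fragment share contacts. Of the 6 measured genes of the architecture list (Ctcf, Rad21, Smc1a, Smc3, Nipbl and Yy1), Rad21, Smc1a and Smc3, which encode subunits of cohesin, were lower in iPS cells and Yy1 was higher, beside 22% of all models lower and 29.3% higher. Smc1a fell most, by 1.80 on the log2 scale (SE 0.24, adjusted p = 2.1e-07 by edgeR's quasi-likelihood test), and Ctcf did not pass (-0.25, adjusted p = 0.755, at 0.837 and 1.74 CPM in NPC cells).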

How the data were processed

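5C and RNA libraries of 5 groups (ES, ES 2i, iPS, iPS 2i and NPC, 2 replicates each per assay) were used, all 10 5C libraries in each 5C fit and iPS against NPC as the contrast. The deposited 5C files give counts of reads per primer pair, made by the authors with Bowtie and mm9 (per the submitters' processing notes). The deposited RNA files give counts per gene model (TopHat2 2.1.0 and HTSeq, per the same notes). A separate deposited table holds the authors' normalised values of 20 kb bins in 4 kb steps on a log scale, used here as log2 values although the base is not stated, and used for direction and class only. Fragment positions are those of the deposited primer list. RNA reads in no gene model, 59.3% to 86.6% in the iPS and NPC libraries, stayed out of library sizes and tests.

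The expected count of a pair was the mean of its region and 1 of 20 distance strata in that library. edgeR 4.0.16 (quasi-likelihood, prior count 2, R 4.3.3) tested pairs and 50 kb blocks with these as offset, and RNA with TMM. The same edgeR test was used for strata, with the total of the library and region as offset. Primer totals were tested with it too, with their summed expected counts as offset. Balancing multiplied the expected counts by primer factors, iterated 50 times. Adjusted p is Benjamini-Hochberg at 0.05 over all features of a test. Samples were grouped by their labels, and the scripts were tested on simulated data.

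The contacts, gene lists and tests were chosen with earlier results of these data known. Contacts, blocks and promoters were named by size of change or lowest p within a region, as stated beside them. The fragments with the most changed contacts, the primers with few NPC counts, the dominant pairs, the blocks of each gene start, Urb1 and Bcan were chosen after their values were seen. Counts on shared primers are not independent, and no molecular identifiers were used, so precision is limited to the spread of 2 libraries a group. Alternatives were another scaling, balancing, other block sizes, other strata, a replicate block, DESeq2 1.42.0, and leaving out each replicate, neighbouring fragments, dominant pairs or pairs within 50 kb. The 2i groups were not compared.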

Additional observations from a re-analysis of the deposited data

How the results depend on the processing

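The count of called pairs, 4731, was 9580 with balanced primers, 19279 with library totals and 7384 with TMM. It was 6602 with 10 and 4063 with 40 distance strata. With only the 4 iPS and NPC libraries it was 2748 and without pairs within 50 kb 2711, while DESeq2 gave 6331. Leaving out 1 library gave 1331 to 3780 calls (without iPS replicate 1 and without iPS replicate 2), 3454 to 8626 with balanced primers, and without neighbouring fragments 908, 2235, 2893 and 3037 for iPS replicate 1, NPC replicate 1, NPC replicate 2 and iPS replicate 2. The block count, 760, was 2090 for 20 kb and 258 for 100 kb blocks, where the number of blocks tested also changes, and 461 to 652 with 1 library left out. The primer count, 309, was 203 without neighbouring fragments and 107 to 302 with 1 library left out. The 131 distance strata became 67 with 10 strata a region, where only 70 are tested, 50 without pairs within 50 kb, and 126 to 132 with 1 library left out. The RNA count, 5663, was 3892 to 5175 with 1 library left out. The cause of these changes was not tested. The labels do not say that a replicate number marks a shared animal, day or batch. The deviations of same-numbered 5C libraries correlated with r = -0.0497 between iPS and NPC, and from -0.0908 to 0.284 over all 10 pairs of groups, 4 of them over 0.1, so the numbers were not taken to pair the libraries. With the replicate number as a block 5848 pairs, 830 blocks, 434 primers, 134 strata and 5558 RNA models were called, and 10014 pairs with balanced primers as well. Under that block the Sox2 contact 155F-180R, of the promoter with the window 100 to 120 kb downstream, passed (1.16, adjusted p = 0.0107; 1.13 and 0.0162 without neighbouring fragments).

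Signs turned for 4 named contacts. Contact Oct4 281F-284R was -0.26 balanced without neighbouring fragments. Contact Oct4 285F-284R was -0.99 balanced, -0.99 with the replicate block and balancing, and -0.82, -1.14, -1.10 and -0.88 balanced without NPC replicate 1, NPC replicate 2, iPS replicate 1 and iPS replicate 2. Contact gene-desert 61F-66R was -0.22 with library totals and -0.998 with TMM, and contact gene-desert 67F-64R was -0.45 and -1.23. Over 43 contacts, 671 of 706 values under the other settings kept direction and call, and of 504 values with 1 library left out 435 did. Depth limits the far pairs most: beyond 800 kb the median was 19.7 counts.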
